A study of Homo sapiens with 8 samples.

Results

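BEAS-2B cells that had been exposed to the isolated fibrinogen αC domain were compared with BEAS-2B cells that had been exposed to intact fibrinogen, by RNA sequencing, over all genes of the count files. BEAS-2B is an immortalised human bronchial epithelial line, labelled wild type and kept in LHC-9, a medium without serum. The αC group (αC domain) and the FBG group (fibrinogen) have 2 libraries each, 4 of the 8 libraries in the series. The other 4 are 2 libraries of FCP, a preparation derived from Der m 1 whose abbreviation the labels do not expand, and 2 of Mock, which received PBS. All exposures lasted 4 h, and αC, FCP and fibrinogen were each used at 4 ng/µl, so the preparations were matched by mass and not by number of molecules. The sources used here give neither how the αC domain was made nor the species of the fibrinogen, and the series title words the domain as derived from the allergen of Dermatophagoides microceras. The files list 50006 genes, of which 9932 were set aside because they have a copy on an alternate locus or lie off the chromosomes. Of the 40074 kept, 15284 had enough counts to be tested.

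Fibrinogen is a plasma glycoprotein built from pairs of Aα, Bβ and γ chains, and thrombin turns it into fibrin. The αC region is the long, flexible C-terminal part of the Aα chain. In human fibrinogen it carries an RGD motif that integrins such as αvβ3 can bind, sites for crosslinking by transglutaminases, and sites that bind fibronectin and the plasminogen system. Airway epithelium meets fibrinogen when plasma leaks into the lumen. Epithelial cells hold on to one another through cadherins and desmosomes and to laminin-332 through the α6β4 integrin of hemidesmosomes, whereas fibroblast-like cells rely more on focal adhesions, N-cadherin and fibrillar collagen.

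Total counts were 22258791 and 22248780 in the αC libraries, against 15137196 and 15144403 in the FBG libraries, so 3 counts correspond to 0.135 CPM (a count scaled for library depth) in αC and 0.198 CPM in FBG. Genes with at least 1 count numbered 24602 and 24556 in αC, and 23412 and 23376 after thinning to the depth of the shallowest library, against 21417 and 21533 in FBG. Within a group the counts of the libraries differed by 1.26 (αC) and 1.34 (FBG) times the variance that counting alone gives. The labels number them as biological replicates without naming separate cultures, so p-values measure the spread between libraries alone, and that spread may be technical. The first principal component of all 8 libraries held 83.7% of the variance and placed the αC libraries at 75.4 and 75.4 and the FBG libraries at -61.4 and -60.7. FCP lay at 70.3 and 70.5, and Mock at -85.2 and -84.4. The αC libraries stood on the side of FCP, and the FBG libraries on the side of Mock. The labelled cell type was checked against markers of airway basal cells, the type from which bronchial lines are usually grown. The 6 markers (KRT5, KRT14, KRT15, TP63, NGFR and ITGA6) summed to 1981 and 2040 CPM in αC, 67.01 and 63.3 CPM in FBG, 1981 and 2003 CPM in FCP and 67.7 and 72.2 CPM in Mock. KRT5 held most of the αC sum (1593 and 1656 CPM), and ITGA6 most of the FBG sum (58.4 and 53.8 CPM). In the FBG libraries TP63 had 1 and 3 counts and KRT15 had 0 and 2 counts, so these basal markers were at or near 0 there. KRT5 had 7.01 and 7.68 CPM in FBG. CDH1, E-cadherin, averaged 254 CPM in FCP and 4.54 CPM in Mock, and NGFR, a receptor of basal cells, had 9.01 and 8.78 CPM in αC and 1.496 and 1.09 CPM in FBG (2.78 ± 0.20 on the log2 scale).

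The αC and FBG libraries differed in most of the genes tested. Called genes (edgeR quasi-likelihood test, Benjamini-Hochberg adjusted p under 0.05) numbered 11223 of 15284, 73.4% of those tested. Of these, 5589 were higher in αC (36.6%) and 5634 were lower (36.9%), and the median log2 fold change of all genes, αC over FBG, was 0.02. These shares and this median are the background for the member counts of each gene list below. At least 2-fold higher and called were 2402 genes (15.7%), and at least 2-fold lower and called were 1167 (7.64%). Genes of the first kind held 7.91% of the scaled counts in αC and 2.33% in FBG. Those of the second kind held 1.898% in αC and 6.33% in FBG. The same fit called 2327 genes between αC and FCP (15.2%), 78 of them at least 2-fold apart (0.51%). It called 12134 between αC and Mock (79.4%, with 30.5% at least 2-fold apart) and 8343 between FBG and Mock (54.6%, with 6.99% at least 2-fold apart). The median absolute log2 fold change was 0.49 between αC and FBG, 0.0959 between αC and FCP, 0.65 between αC and Mock and 0.32 between FBG and Mock.

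**Figure D1:**
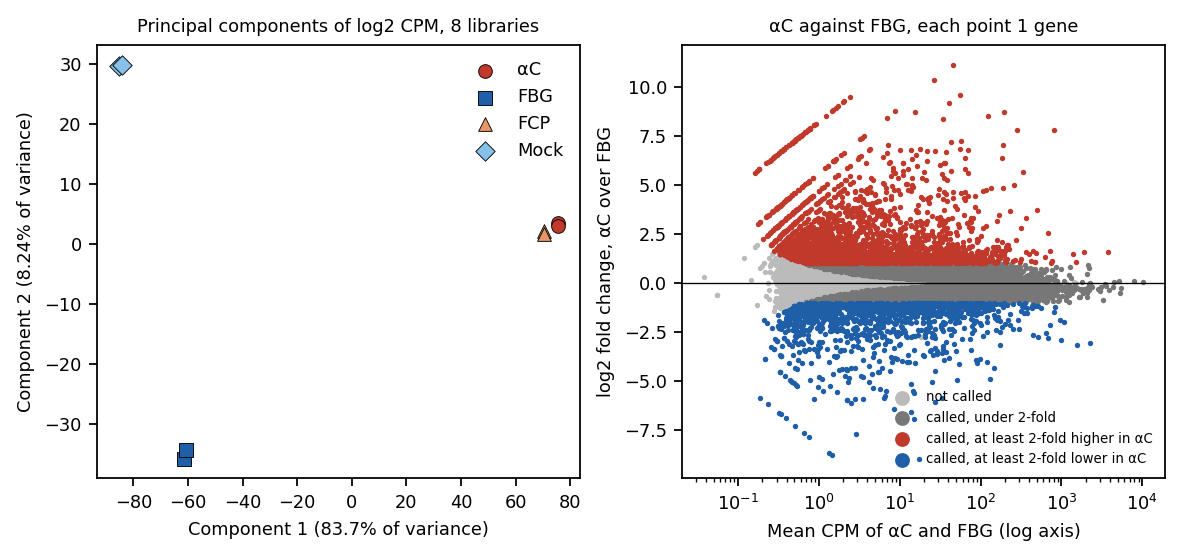
Left, the first and second principal components of log2 CPM, each point 1 library. Right, the log2 fold change of each tested gene, αC over FBG, against its mean CPM in the 4 libraries on a log axis, in colour where it was called and at least 2-fold apart (2402 genes higher and 1167 lower in αC). The αC libraries lie at 75.4 on the first component, FBG at -61.4 and -60.7.

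Most regulators of epithelial identity were higher in αC. In the list of epithelial transcription and splicing regulators 14 of 17 tested members were higher, 1 was lower and 2 were not called, with a median log2 fold change of 3.91, against 0.02 for all genes tested. TP63 (chromosome 3, 189596746 to 189897276, coordinates in GRCh38.p14), the p53 relative that basal cells depend on, had 111 and 109 CPM in the αC libraries, against 0.06801 and 0.204 CPM in the FBG libraries. The libraries of the groups were far apart, with a log2 fold change of 9.59 ± 0.14 (± SE, adjusted p = 5.05e-112, edgeR). GRHL2, a grainyhead factor that maintains epithelial junctions, had 20.1 and 23.5 CPM in the αC libraries, against 0.612 and 0.204 CPM in the FBG libraries (5.72 ± 0.20). ESRP1, a regulator of epithelial splicing, had 72.2 and 76.6 CPM in the αC libraries, against 0.6801 and 0.748 CPM in the FBG libraries (6.69 ± 0.12). The member that was lower was KLF5, a Krüppel-like factor of epithelial progenitors, with 55.97 and 54.04 CPM in αC and 69.9 and 73.4 CPM in FBG (-0.38 ± 0.045). In bulk RNA, fewer cells of a type and less RNA per cell cannot be told apart.

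All 13 tested keratins were higher in αC, with a median log2 fold change of 3.99, and KRT13 fell under the filter on low counts. KRT5 (chromosome 12, 52514575 to 52520394), the type II keratin of basal cells, had 1593 and 1656 CPM in the αC libraries, against 7.01 and 7.68 CPM in the FBG libraries. That is a log2 fold change of 7.79 ± 0.16, adjusted p = 1.20e-06 (edgeR). KRT6B, a keratin of injured and hyperproliferative epithelium, had 1281 and 1165 counts in αC and 0 and 1 in FBG, a ratio of 1541 with a 95% counting interval of 276 to 60900. KRT19, a keratin of simple epithelia, had 212 and 206 CPM in αC and 8.09 and 8.09 CPM in FBG (4.69 ± 0.057). KRT7, also of simple epithelia, had 2794 and 2759 CPM in αC and 1460 and 1452 CPM in FBG (0.93 ± 0.014). KRT17, a basal and stress keratin, had 1079 and 1088 CPM in αC and 359 and 349.5 CPM in FBG (1.61 ± 0.012). KRT8 and KRT18, which pair in simple epithelia, were higher by 0.695 ± 0.016 and 0.47 ± 0.019. The keratins form 2 gene clusters of similar sequence, so reads of close members can be shared.

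Regulators of the mesenchymal state were split. Of 11 tested, 3 were higher in αC, 6 lower and 2 not called, with a median of -0.58. FOXC2, a forkhead factor of mesenchyme, had 10.7 and 10.5 CPM in the αC libraries, against 163 and 163 CPM in the FBG libraries (-3.94 ± 0.052). ZEB2 and ZEB1, zinc-finger repressors of CDH1, were lower as well. ZEB2 had 9.39 and 10.5 CPM in αC and 30.1 and 30.7 CPM in FBG (-1.61 ± 0.089), and ZEB1 had 18.1 and 19.4 CPM in αC and 32.5 and 31.6 CPM in FBG (-0.77 ± 0.077). SNAI2 went the other way, with 19.98 and 23.3 CPM in αC and 2.72 and 2.45 CPM in FBG (3.06 ± 0.14), and it is also a factor of basal epithelial cells. QKI, an RNA-binding protein, was higher by 0.34 ± 0.028. VIM, vimentin, the intermediate filament of mesenchymal and cultured cells, had 321 and 325 CPM in the αC libraries, against 782 and 796 CPM in the FBG libraries (-1.29 ± 0.018).

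MIR205HG, the host transcript of the epithelial microRNA miR-205, had 741 and 712 counts in the αC libraries and 0 and 2 in the FBG libraries. This is a ratio of 458, with a 95% counting interval of 126 to 3784. FCP had a mean of 27.8 CPM and Mock 0.134 CPM. The libraries measure the host transcript and not the mature microRNA, which is known to act on the ZEB1 and ZEB2 messenger RNAs given above. Its 5p sequence is shown because of these targets, with the seed, bases 2 to 8, in capitals (RefSeq, GRCh38.p14, chr1:209432166-209432187, + strand).
hsa-miR-205-5p: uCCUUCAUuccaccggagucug

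Cadherins changed by member. In the list of classical cadherins and catenins 8 of 15 were higher in αC, 5 lower and 2 not called. CDH1 (chromosome 16, 68737292 to 68835537), E-cadherin, had 258 and 258 CPM in the αC libraries, against 8.23 and 9.93 CPM in the FBG libraries, a log2 fold change of 4.83 ± 0.052 (adjusted p = 3.00e-131, edgeR). CDH3, P-cadherin of basal layers, had 226 and 227 CPM in the αC libraries, against 8.71 and 8.50 CPM in the FBG libraries (4.72 ± 0.054). CDH2, N-cadherin, had 38.3 and 38.2 CPM in the αC libraries, against 171 and 163 CPM in the FBG libraries (-2.13 ± 0.039). CDH2 stood on the other side from CDH1 and CDH3. CDH6, K-cadherin, was lower in αC with 4.07 and 3.38 CPM in αC and 47.8 and 46.9 CPM in FBG (-3.67 ± 0.098). The catenins that link cadherins to actin moved little, with β-catenin (CTNNB1) higher by 0.29 ± 0.021, p120-catenin (CTNND1) higher by 0.34 ± 0.11 and α-catenin (CTNNA1) at -0.03 ± 0.011, a size at which the scaling decides the sign.

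**Figure D2:**
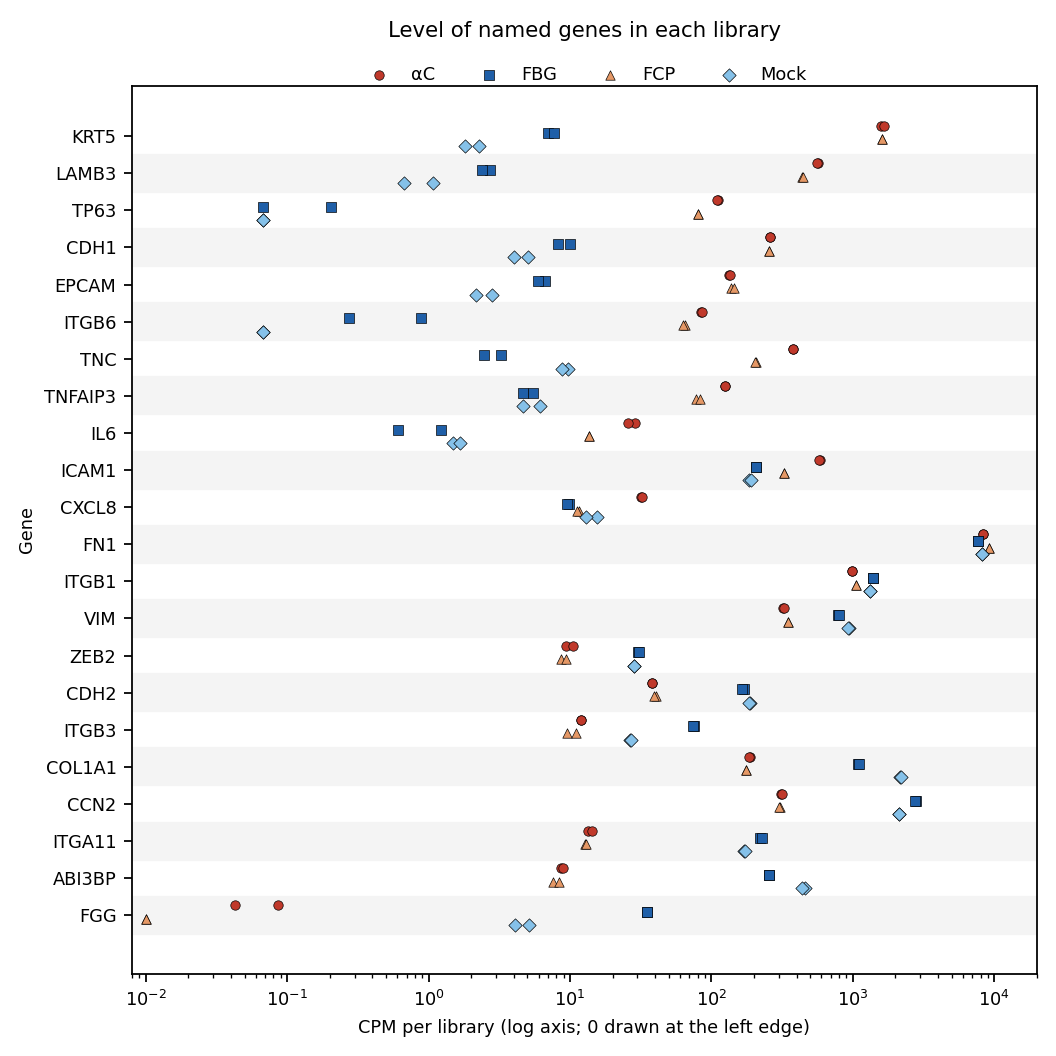
CPM of 22 genes in each library on a log axis, with 2 points for each of αC, FBG, FCP and Mock. A count of 0 is drawn at the left edge. From KRT5 to CXCL8 the αC libraries lie to the right of the FBG libraries, from ITGB1 to FGG to their left, while for FN1 they lie close together.

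Junctions and anchoring structures of basal epithelium were mostly higher in αC. In the list of hemidesmosome, laminin-332 and anchoring fibril genes 9 of 10 were higher, all 9 of them at least 2-fold, and CD151 was not called, with a median of 2.94. LAMB3 (chromosome 1, 209614870 to 209652425), the β3 chain of laminin-332, had 567 and 556 CPM in the αC libraries, against 2.72 and 2.38 CPM in the FBG libraries, a log2 fold change of 7.78 ± 0.055 (adjusted p = 1.05e-157, edgeR). LAMA3, the α3 chain, had 369 and 373 CPM in αC and 15.5 and 10.3 CPM in FBG. COL17A1, the transmembrane collagen of hemidesmosomes, had 72.3 and 72.3 CPM in the αC libraries, against 1.29 and 0.748 CPM in the FBG libraries (6.14 ± 0.11). PLEC, plectin, which ties hemidesmosomes to keratin filaments, had 5687 and 5681 CPM in αC and 1903 and 1929 CPM in FBG (1.57 ± 0.0013). COL7A1, the collagen of anchoring fibrils, was higher by 3.66 ± 0.035.

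Of the desmosome list 8 of 11 were higher in αC and 3 lower, with a median of 1.08. DSP, desmoplakin, had 1156 and 1168 CPM in the αC libraries, against 191 and 203 CPM in the FBG libraries (2.56 ± 0.014), and PKP3, a plakophilin of epithelia, had 124 and 120.3 CPM in αC and 14.6 and 14.8 CPM in FBG (3.05 ± 0.056). PKP2, a plakophilin also found in heart, had 51.9 and 55.7 CPM in αC and 132 and 128 CPM in FBG (-1.27 ± 0.040), and PKP4 was lower with a log2 fold change of -0.61 ± 0.029. In the tight junction list 6 of 9 were higher, 2 lower and 1 not called. F11R, junctional adhesion molecule A, had 159 and 155 CPM in αC and 50.4 and 54.5 CPM in FBG (1.58 ± 0.038), CLDN1 149 and 152 CPM in αC and 67.5 and 67.1 CPM in FBG (1.16 ± 0.036) and JAM2 2.74 and 3.04 CPM in αC and 11.9 and 11.1 CPM in FBG (-1.99 ± 0.15), and CLDN11 was lower at -0.44 ± 0.038. Of the 18 tight junction genes listed, CLDN7, OCLN, MARVELD2 and TJP1 were set aside for their copies. CLDN3, CLDN4, CLDN6, TJP3 and JAM3 fell under the filter on low counts. Among immunoglobulin-family, proteoglycan and other adhesion receptors 12 of 16 were higher and 3 lower. EPCAM, the epithelial cell adhesion molecule, had 133 and 136 CPM in the αC libraries, against 6.67 and 5.92 CPM in the FBG libraries (4.42 ± 0.067). SDC1 and SDC2, syndecans of epithelial and of mesenchymal cells, went in opposite directions, at 1.54 ± 0.037 and -3.82 ± 0.075. GPC6, a glypican, was lower at -1.98 ± 0.070.

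Integrin subunits differed in both directions. Of 12 α subunits tested 6 were higher in αC, 4 lower and 2 not called, and of 7 β subunits 3 were higher and 4 lower. ITGB6 (chromosome 2, 160099671 to 160200272), the epithelial partner of αv that binds fibronectin and activates latent TGF-β, had 84.7 and 86.1 CPM in the αC libraries, against 0.884 and 0.272 CPM in the FBG libraries (7.19 ± 0.12, adjusted p = 8.66e-103, edgeR). ITGB3 (chromosome 17, 47253827 to 47313743), the β3 subunit that with αv makes a receptor for the RGD motif of fibrinogen, had 11.96 and 11.9 CPM in the αC libraries, against 74.9 and 74.1 CPM in the FBG libraries (-2.64 ± 0.068, adjusted p = 2.36e-78). The direction differed between ITGB6 and ITGB3. ITGAV, the αv subunit shared by both, had 189.9 and 195 CPM in αC and 108 and 108 CPM in FBG (0.83 ± 0.031). ITGA5 and ITGB1, which form the fibronectin receptor α5β1, had 106 and 108 CPM in αC and 73.9 and 78.2 CPM in FBG (0.49 ± 0.038) for ITGA5 and 981 and 991 CPM in αC and 1392 and 1382 CPM in FBG (-0.49 ± 0.0071) for ITGB1. For collagen, ITGA2 had 63.8 and 63.5 CPM in the αC libraries, against 7.82 and 7.28 CPM in the FBG libraries (3.07 ± 0.076), whereas ITGA11, a collagen receptor subunit of fibroblasts, had 13.3 and 14.3 CPM in the αC libraries, against 222 and 229 CPM in the FBG libraries (-4.03 ± 0.046). For laminin, ITGA6 had 261 and 260.3 CPM in αC and 58.4 and 53.8 CPM in FBG (2.22 ± 0.035), ITGB4 had 2046 and 2008 CPM in αC and 728 and 734 CPM in FBG (1.47 ± 0.026) and ITGA7, a subunit of muscle, had 3.26 and 3.64 CPM in αC and 11.5 and 11.4 CPM in FBG (-1.73 ± 0.14). ITGB8 was higher by 0.34 ± 0.11 (adjusted p = 0.002399, edgeR), a call that ended without αC replicate 1 (0.24, adjusted p = 0.0874) and with the trends in GC content and length taken out (0.08, adjusted p = 0.474). ITGB2, a leukocyte subunit, was low at 1.29 and 1.199 CPM in αC and 2.65 and 2.72 CPM in FBG.

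Per kilobase of exon, the fibronectin and fibrinogen receptor subunits ranked as follows in mean RPKM. In αC, ITGB1 was at 245, ITGAV at 26.5, ITGA5 at 24.7, ITGB6 at 18.4 and ITGB3 at 2.01. In FBG, ITGB1 was at 345, ITGA5 at 17.6, ITGAV at 14.9, ITGB3 at 12.5 and ITGB6 at 0.125. ITGB1 was first and ITGB3 and ITGB6 traded the last place. Mock had 26.9 CPM of ITGB3 and 0.0672 CPM of ITGB6, and FCP had 10.3 CPM of ITGB3 and 64.3 CPM of ITGB6.

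Focal adhesion genes, the intracellular partners of integrins, differed in both directions. Of 23 tested 12 were lower in αC, 8 higher and 3 not called, against 36.9% lower and 36.6% higher of all genes tested, with a median of -0.22, and ZYX, BCAR1, ACTN4 and SRC were set aside. Kindlins, which activate integrins, moved apart. FERMT1, the kindlin of epithelia, had 83.03 and 80.4 CPM in the αC libraries, against 7.69 and 8.57 CPM in the FBG libraries (3.33 ± 0.070). FERMT2, the kindlin of mesenchymal cells, had 92.4 and 91.2 CPM in the αC libraries, against 347 and 336 CPM in the FBG libraries (-1.896 ± 0.028). TNS4, a short tensin of epithelia, had 659 and 654 CPM in the αC libraries, against 13.8 and 11.8 CPM in the FBG libraries (5.68 ± 0.039), and LIMS2, an adaptor of integrin-linked kinase, had 7.16 and 6.55 CPM in αC and 35.7 and 34.95 CPM in FBG (-2.36 ± 0.094). The core parts varied less: PTK2, focal adhesion kinase, was at 0.08 ± 0.028, VCL, vinculin, at -0.42 ± 0.023, PXN, paxillin, at 0.83 ± 0.026, and TLN1, talin, was not called at -0.02 ± 0.010 (adjusted p = 0.163, edgeR).

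Cytokine, chemokine and feedback genes of the NF-κB pathway were higher in αC with few exceptions. NF-κB factors wait in the cytoplasm bound to inhibitors such as IκBα (NFKBIA), which is degraded after signals from interleukin-1, tumour necrosis factor or Toll-like receptors, and then bind κB sites in the promoters of these genes. Of 28 tested members 26 were higher, 23 of them at least 2-fold, none was lower and 2 (IL11 and CXCL6) were not called, with a median of 2.72, or 2.70 with the 2 members at 0 in FBG set to the bound that 3 counts allow. CCL5 and TNF were set aside. IL1B, interleukin-1β, had 2043 and 2158 counts in the αC libraries and 1 and 0 in the FBG libraries, a ratio of 2647 with a 95% counting interval of 475 to 104580. IL1A, interleukin-1α, had 81.01 and 83.4 CPM in αC and 0.136 and 0.136 CPM in FBG. IL6 (chromosome 7, 22727200 to 22731998) had 28.8 and 25.6 CPM in the αC libraries, against 0.612 and 1.22 CPM in the FBG libraries, a log2 fold change of 4.88 ± 0.17 (adjusted p = 1.02e-62, edgeR). In FBG none of these exceeded 1.22 CPM.

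CXCL8, the neutrophil chemokine interleukin-8, had 31.8 and 32.2 CPM in the αC libraries, against 9.86 and 9.59 CPM in the FBG libraries (1.72 ± 0.093). CXCL2, a neutrophil chemokine, had 12.2 and 10.4 CPM in the αC libraries, against 0.748 and 1.22 CPM in the FBG libraries (3.51 ± 0.20). TNFAIP3, the A20 enzyme that damps NF-κB signalling, had 125 and 124 CPM in the αC libraries, against 4.62 and 5.44 CPM in the FBG libraries (4.63 ± 0.073). ICAM1, the leukocyte ligand that also binds fibrinogen, had 588 and 575 CPM in the αC libraries, against 206 and 207 CPM in the FBG libraries (1.49 ± 0.021). For CXCL8 and ICAM1 the FBG libraries already held a clear level. CSF2, encoding GM-CSF, had 29 and 30 counts in αC and none in FBG, which makes it at least 12.4-fold higher in αC when 3 counts over the FBG group are taken as the floor.

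CXCL8, ICAM1 and IL6 were also called higher in αC than in FCP. CXCL8 averaged 11.3 CPM in FCP and 14.2 CPM in Mock, and its log2 fold change of αC over FCP was 1.499 ± 0.082. For ICAM1 the means were 324 CPM in FCP and 188 CPM in Mock, with 0.84 ± 0.015 over FCP. IL6 averaged 13.7 CPM in FCP and 1.58 CPM in Mock, with 0.99 ± 0.088 over FCP. KRT5 averaged 1609 CPM in FCP and was not called between αC and FCP, at 0.01 ± 0.020. Epithelial genes varied in this comparison. KRT6B (1.85 ± 0.073), TP63 (0.45 ± 0.035) and LAMB3 (0.35 ± 0.013) were called higher in αC than in FCP. S100A2 was called lower (-0.19 ± 0.016), and CDH1 was not called (0.02 ± 0.021). These comparisons share the αC libraries with the one against FBG.

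The promoters of the list were searched for the κB motif GGANNTTCC on both strands of the 250 bases before each start, where a match read from either strand counts (RefSeq, GRCh38.p14). The motif was chosen with the fold changes known. Promoters were held for 22 of the 28 tested members and 13 of these had a match (59.1%), against 3.84% of all 35116 promoters and 5.28% of the tested genes with a promoter. CXCL6, which was not called, was among the 13. The list was written from known NF-κB targets, so an excess of matches was built in and is no result of these libraries. A match is a description of these letters and not evidence of binding. The sequences below show 31 bases around a match, which is in capitals, for 9 genes of the list named here, read 5′ to 3′ along the gene's strand. In CXCL1, CXCL2 and CXCL3, which lie in a cluster of duplicated genes on chromosome 4, the match starts 78, 77 and 78 bases before the start and its flanks are nearly the same.
CXCL1: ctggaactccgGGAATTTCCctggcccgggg
CXCL2: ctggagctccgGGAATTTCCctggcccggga
CXCL3: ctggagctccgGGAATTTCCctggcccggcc
CXCL8: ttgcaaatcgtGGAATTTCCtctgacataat
IL6: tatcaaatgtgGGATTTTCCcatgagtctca
CSF2: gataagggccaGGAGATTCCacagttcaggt
TNFAIP3: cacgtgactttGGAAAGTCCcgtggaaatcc
NFKBIA: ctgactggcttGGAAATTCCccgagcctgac
ICAM1: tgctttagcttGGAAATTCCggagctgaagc
The stretches are chr4:73869304-73869334 (+ strand), chr4:74099253-74099283 (- strand), chr4:74038748-74038778 (- strand), chr4:73740467-73740497 (+ strand), chr7:22727117-22727147 (+ strand), chr5:132073676-132073706 (+ strand), chr6:137867181-137867211 (+ strand), chr14:35404811-35404841 (- strand) and chr19:10270923-10270953 (+ strand). Genes with nearly the same stretch differed in size of change, as CXCL1 was higher by 0.68 ± 0.064, CXCL2 by 3.51 ± 0.20 and CXCL3 by 3.11 ± 0.24. NFKBIA itself had 152 and 155 CPM in αC and 33.9 and 34.3 CPM in FBG (2.17 ± 0.043).

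**Figure D3:**
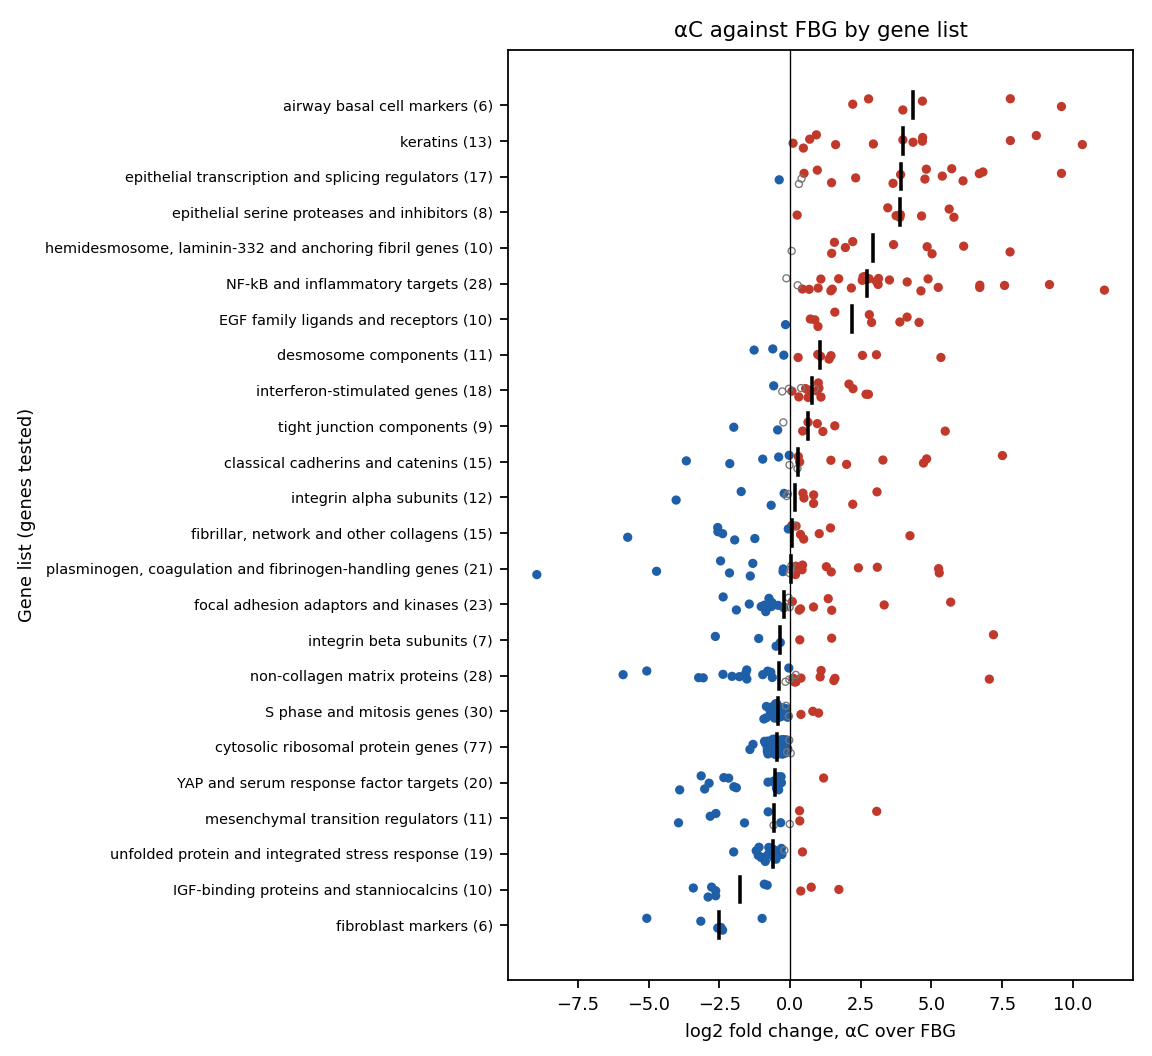
Log2 fold change, αC over FBG, of each tested gene in 24 gene lists, with the number tested in brackets. Red points were called higher in αC, blue points lower, open points were not called, and the black bar is the list's median. Medians run from 4.33 for airway basal cell markers to -2.50 for fibroblast markers.

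Other innate lists had smaller medians than the NF-κB list. Interferon-stimulated genes were higher in 13 of 18 cases and lower in 1, with 4 not called and a median of 0.76. IFI44 had 12.3 and 12.3 CPM in αC and 1.84 and 1.97 CPM in FBG (2.69 ± 0.17), OASL, an antiviral factor, had 8.11 and 7.49 CPM in αC and 1.904 and 1.77 CPM in FBG (2.08 ± 0.19), and IFI6 had 8.19 and 7.62 CPM in αC and 13.3 and 10.3 CPM in FBG (-0.58 ± 0.12). The call of IFI6, the member that was lower, ended with the trends in GC content and length taken out (-0.21, adjusted p = 0.101, edgeR). Among Toll-like receptors and endotoxin signalling genes 5 of 11 were higher, 4 lower and 2 not called, with a median of 0.07. This was near the background of all genes tested (36.6% higher, 36.9% lower, median 0.02). TLR2, the receptor for bacterial lipopeptides, had 14.1 and 15.7 CPM in the αC libraries, against 0.816 and 0.680 CPM in the FBG libraries (4.303 ± 0.20). TLR4, the endotoxin receptor, had 39.3 and 35.8 CPM in the αC libraries, against 112 and 116 CPM in the FBG libraries (-1.599 ± 0.045), so the pair stood on opposite sides. CD14 was higher by 0.74 ± 0.26 (adjusted p = 0.00861, edgeR), a call that ended by DESeq2 (0.76, adjusted p = 0.0762) and without αC replicate 1 (0.66, adjusted p = 0.05165) or FBG replicate 2 (0.52, adjusted p = 0.153). IRAK4 was lower at -0.35 ± 0.10. In the list of type 2 alarmins and cytokine receptors 3 of 6 tested were higher and 2 lower. The median was 1.84, and members ran from -5.90 to 5.79. Of the 13 listed, 7 were under the filter, IL33 and IL25 among them. TSLP was not called (0.498 ± 0.47, adjusted p = 0.335, edgeR). IL4R, the receptor for interleukins 4 and 13, had 134 and 132 CPM in αC and 14.7 and 14.6 CPM in FBG (3.18 ± 0.055). C3, the central complement component, had 919 and 917 CPM in the αC libraries, against 71.96 and 68.6 CPM in the FBG libraries (3.71 ± 0.022, chromosome 19, 6677704 to 6720650).

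Of the genes that handle fibrinogen, fibrin and plasminogen, 10 of 21 tested were higher in αC, 8 lower and 3 not called, with a median of 0.05. Of all genes tested 36.6% were higher and 36.9% lower, with a median of 0.02, so the list's counts stood close to that background. PLAU, urokinase, which activates plasminogen at the cell surface, had 135 and 136 CPM in the αC libraries, against 15.3 and 16.5 CPM in the FBG libraries (3.09 ± 0.054). PLAUR, its receptor, had 20.1 and 19.5 CPM in αC and 6.12 and 8.296 CPM in FBG (1.46 ± 0.11), and PLAT, tissue plasminogen activator, had 65.1 and 65.98 CPM in αC and 47.5 and 48.9 CPM in FBG (0.44 ± 0.049). SERPINB5, maspin, an epithelial serpin, was higher by 5.25 ± 0.098. F3, tissue factor, which starts coagulation, was not called at -0.01 ± 0.032 (adjusted p = 0.761, edgeR). TGM2, a transglutaminase that can crosslink the αC region, had 267 and 272 CPM in the αC libraries, against 1186 and 1192 CPM in the FBG libraries (-2.14 ± 0.016), and F2RL3, a thrombin receptor, was lower with 0.429 and 0.428 CPM in αC and 2.18 and 2.58 CPM in FBG (-2.46 ± 0.37).

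Messenger RNA of fibrinogen's own chains was found in the FBG libraries. FGG (chromosome 4, 154604136 to 154612656), the γ chain gene, had 1 and 2 counts in the αC libraries and 518 and 513 in the FBG libraries, a ratio of 0.00183 with a 95% counting interval of 0.000377 to 0.00537. FGB, the Bβ chain gene, had 1 and 6 counts in αC and 55 and 66 in FBG (-4.72 ± 0.39). FGA, the Aα chain gene that encodes the αC region, had 0 counts in all 8 libraries. FGG averaged 4.602 CPM in Mock and was at 0 in both FCP libraries, and its log2 fold change of FBG over Mock was 2.93 ± 0.12.

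The epithelial serine proteases and inhibitors that could be tested were all higher in αC, 8 of 8, with a median of 3.89. Of the 17 listed, 8 fell under the filter on low counts (TMPRSS4, HPN, KLK5, KLK6, KLK7, KLK8, KLK10 and KLK11). TMPRSS11E was set aside. The filter can keep a member through the libraries where it is higher, so the tested members do not stand for the whole list. ST14, matriptase, a membrane protease of epithelia, had 136 and 136 CPM in the αC libraries, against 2.65 and 2.86 CPM in the FBG libraries (5.63 ± 0.079), and its inhibitor SPINT1 had 96.3 and 93.2 CPM in the αC libraries, against 7.28 and 6.80 CPM in the FBG libraries (3.75 ± 0.071). Among matrix proteases and inhibitors 7 of 14 were higher and 5 lower. MMP14, a membrane-bound collagenase, had 278 and 278 CPM in αC and 125 and 119 CPM in FBG (1.19 ± 0.028), MMP2, the gelatinase it activates, had 1.67 and 1.46 CPM in αC and 15.1 and 15.8 CPM in FBG (-3.297 ± 0.16), and ADAMTS1 had 7.21 and 8.99 CPM in αC and 37.7 and 39.6 CPM in FBG (-2.26 ± 0.084). TIMP3, an inhibitor held in the matrix, was higher by 2.54 ± 0.25.

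Several matrix genes known from fibroblasts were lower in αC. Collagens were even in number, 7 of 15 higher, 7 lower and 1 not called, and their median of 0.07 turned to -0.04 without αC replicate 2. COL1A1 (chromosome 17, 50184101 to 50201631), the main chain of type I collagen, had 188 and 185 CPM in the αC libraries, against 1096 and 1101 CPM in the FBG libraries (-2.56 ± 0.021, adjusted p = 2.19e-128, edgeR). COL6A3, a type VI chain, had 0.944 and 0.685 CPM in αC and 4.49 and 5.10 CPM in FBG (-2.55 ± 0.25). COL16A1 had 122 and 124 CPM in αC and 5.305 and 7.75 CPM in FBG (4.24 ± 0.070), and COL5A3 was also higher (1.03 ± 0.17). Of 28 non-collagen matrix genes 15 were lower, 10 higher and 3 not called, with a median of -0.39. TNC (chromosome 9, 115019575 to 115118157), tenascin C, a matrix protein of wounds, had 379 and 378 CPM in the αC libraries, against 3.26 and 2.45 CPM in the FBG libraries (7.05 ± 0.058). EFEMP1, fibulin-3, had 478 and 482 CPM in the αC libraries, against 4039 and 4016 CPM in the FBG libraries (-3.07 ± 0.011), and NID2, nidogen 2, had 6.22 and 6.98 CPM in the αC libraries, against 63.1 and 60.9 CPM in the FBG libraries (-3.23 ± 0.084). TGFBI was higher at 1.59 ± 0.022. FN1, fibronectin, to which the αC region can bind, had 8314 and 8306 CPM in αC and 7685 and 7738 CPM in FBG, a log2 fold change of 0.11 ± 0.0022.

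Markers of fibroblasts were lower as well. Their 7 kept members (COL3A1 was set aside) summed to 245 and 246 CPM in αC, 1238 and 1246 CPM in FBG, 236 and 234 CPM in FCP and 2407 and 2441 CPM in Mock, and all 6 tested were lower in αC, with a median of -2.50. PDGFRB, a growth factor receptor of mesenchyme, had 2.102 and 2.18 CPM in αC and 11.5 and 11.8 CPM in FBG (-2.44 ± 0.15). COL1A1 held most of the counts in that sum. Endothelial markers summed to 4.41 and 2.95 CPM in αC and 1.09 and 1.16 CPM in FBG. Leukocyte markers summed to 13.2 and 13.5 CPM in αC and 21.4 and 19.2 CPM in FBG. Among these CD3E was at 0 and most of the counts came from CD68 (-0.72 ± 0.094). Of the 2 leukocyte markers tested CD68 was lower and 1 was higher, at 3.88, with a median of 1.58. That median turned to -0.65 where at least 10 counts were required in every library. Ciliated cell markers summed to 2.61 and 3.34 CPM in αC and 6.52 and 7.68 CPM in FBG, with DNAH5 at -1.25 ± 0.17. Alveolar markers summed to 3.299 and 2.48 CPM in αC and 28.4 and 27.3 CPM in FBG, nearly all from ABCA3, a lipid transporter (-3.42 ± 0.12). Airway secretory markers had 1 to 3 counts a library over 5 kept members in αC and FBG, and platelet and erythroid markers summed to 1.93 and 1.75 CPM in αC and 1.97 and 1.77 CPM in FBG, with PPBP, GP9, HBB and HBA2 at 0. The part of a different mix of cells in these results was not tested.

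Targets of the coactivator YAP and of serum response factor, which read cell spreading and actin tension, were lower in αC in 19 of 20 cases, with a median of -0.54, and ACTA2 alone was higher (3.99 and 4.24 CPM in αC and 1.904 and 1.70 CPM in FBG). CCN2 (chromosome 6, 131948176 to 131951372), connective tissue growth factor, had 311 and 318 CPM in the αC libraries, against 2780 and 2766 CPM in the FBG libraries (-3.14 ± 0.0084, adjusted p = 1.82e-219, edgeR). CCN1, its relative, had 435 and 431 CPM in the αC libraries, against 1717 and 1709 CPM in the FBG libraries (-1.98 ± 0.011). ANKRD1, an ankyrin-repeat target of YAP, had 4.07 and 4.84 CPM in the αC libraries, against 63.1 and 70.1 CPM in the FBG libraries (-3.90 ± 0.093). YAP acts through TEAD factors, whose motif GGAATG was searched in the same promoters after the values were seen. It was found in 8 of the 16 list members with a promoter (50%), against 11.9% of all promoters and 13.1% of tested genes with one. ACTA2, the member that was higher in αC, was among the 8. The list holds known YAP targets, so an excess of matches was built in and is no result of these libraries. CCN2 held 3 matches and ANKRD1 2, shown in capitals in the stretches chr6:131951453-131951552 and chr10:90921200-90921317, both on the - strand.
CCN2: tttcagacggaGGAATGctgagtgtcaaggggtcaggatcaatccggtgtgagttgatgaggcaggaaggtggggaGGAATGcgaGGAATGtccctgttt
ANKRD1: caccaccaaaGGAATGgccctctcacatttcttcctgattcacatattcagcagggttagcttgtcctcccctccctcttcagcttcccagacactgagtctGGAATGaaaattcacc

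Growth factor systems differed by family. EGF family ligands and receptors were higher in 9 of 10 cases, with a median of 2.19. TGFA had 71.1 and 71.98 CPM in the αC libraries, against 2.99 and 3.06 CPM in the FBG libraries (4.56 ± 0.090) and AREG, amphiregulin, had 29.2 and 27.1 CPM in the αC libraries, against 3.94 and 3.67 CPM in the FBG libraries (2.88 ± 0.11), while the receptor gene ERBB2 was lower with 122 and 124 CPM in αC and 135 and 139 CPM in FBG (-0.16 ± 0.032) and was not called with scaling by library size only (-0.05, adjusted p = 0.176). IGF-binding proteins were lower, in a list with 7 of 10 lower, 3 higher and a median of -1.77. IGFBP4 had 232 and 233 CPM in the αC libraries, against 1721 and 1738 CPM in the FBG libraries (-2.896 ± 0.015), IGFBP2 had 12.9 and 13.1 CPM in αC and 138 and 139.9 CPM in FBG (-3.42 ± 0.051), and the receptor gene IGF1R was higher by 0.75 ± 0.028. STC1, stanniocalcin 1, was higher by 1.73 ± 0.22.

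In the TGF-β family 7 of 15 were higher, 5 lower and 3 not called, with a median of 0.16. Of all genes tested 36.6% were higher and 36.9% lower, with a median of 0.02. INHBA, the activin A subunit, had 60.4 and 57.8 CPM in αC and 2.45 and 1.84 CPM in FBG (4.78 ± 0.11), SMAD3, a signal transducer, had 183 and 184 CPM in αC and 53.8 and 54.9 CPM in FBG (1.75 ± 0.036), BMP4 had 5.02 and 3.77 CPM in αC and 55.2 and 53.04 CPM in FBG (-3.62 ± 0.092) and TGFB2 had 7.93 and 6.55 CPM in αC and 43.3 and 42.4 CPM in FBG (-2.56 ± 0.091). Among WNT and FGF genes 11 of 20 were higher and 9 lower, with a median of 0.14 that turned to -0.01 where at least 10 counts were required in every library. FGFBP1, a carrier of fibroblast growth factors, had 114 and 109.9 CPM in the αC libraries, against 0.6801 and 1.29 CPM in the FBG libraries (6.82 ± 0.10) and SFRP1, a secreted WNT antagonist, had 128 and 124 CPM in the αC libraries, against 1.43 and 1.63 CPM in the FBG libraries (6.36 ± 0.091). FZD2, a WNT receptor, had 19.1 and 19.2 CPM in αC and 66.2 and 66.03 CPM in FBG (-1.79 ± 0.057), and FGF5 had 1.63 and 1.97 CPM in αC and 5.85 and 5.58 CPM in FBG (-1.66 ± 0.19). S100 proteins and annexins were higher in 7 and lower in 5 of 15 cases, with a median of 0.03, close to the 0.02 of all genes tested. S100A2 and S100A14, calcium-binding proteins of stratified epithelium, had 366 and 363 CPM in αC and 4.01 and 4.62 CPM in FBG (6.396 ± 0.056) for S100A2 and 139.5 and 137 CPM in αC and 0.884 and 1.63 CPM in FBG (6.77 ± 0.093) for S100A14, while ANXA5 (-0.81 ± 0.019) and S100A6 (-0.71 ± 0.059) were lower.

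Proliferation genes were lower in αC by small amounts. Of 30 S phase and mitosis genes 25 were lower, 3 higher and 2 not called, with a median of -0.43 and no member at least 2-fold lower. CDC6, a replication licensing factor, had 125 and 128 CPM in αC and 239 and 241 CPM in FBG (-0.92 ± 0.028) and BIRC5, survivin, had 140.2 and 136 CPM in αC and 245 and 248 CPM in FBG (-0.84 ± 0.028). The higher ones were MKI67 (0.39 ± 0.0062), CENPF (0.805 ± 0.023) and CENPE (1.01 ± 0.038). D-type cyclins and inhibitors were split, 6 higher and 5 lower of 11, and their median of 0.09 turned to -0.05 with at least 10 counts in every library. CDK6 had 142 and 136 CPM in αC and 19.6 and 20.3 CPM in FBG (2.80 ± 0.051), CCND1, cyclin D1, had 369 and 369 CPM in αC and 163 and 162 CPM in FBG (1.18 ± 0.025), CDKN2C, an inhibitor of their kinases, had 8.36 and 9.12 CPM in αC and 29.4 and 31.1 CPM in FBG (-1.79 ± 0.092) and CDKN1B was at -0.69 ± 0.052. Immediate early genes were even, 8 higher and 8 lower of 18. FOS had 23.3 and 23.3 CPM in αC and 7.14 and 6.05 CPM in FBG (1.82 ± 0.11), FOSL1 156 and 155 CPM in αC and 59.9 and 64.1 CPM in FBG (1.33 ± 0.037), KLF2 2.53 and 1.28 CPM in αC and 8.98 and 9.79 CPM in FBG (-2.295 ± 0.18) and NR4A3 0.643 and 0.985 CPM in αC and 2.04 and 2.31 CPM in FBG (-1.41 ± 0.32).

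Protein synthesis and folding genes were lower in αC. Cytosolic ribosomal protein genes were lower in 74 of 77 cases and higher in none, with a median of -0.47. RPL22L1 had 24.3 and 24.02 CPM in αC and 65.2 and 63.9 CPM in FBG (-1.42 ± 0.055) and RPL39L had 9.22 and 9.51 CPM in αC and 22.04 and 24.3 CPM in FBG (-1.31 ± 0.096), and single values are uncertain because ribosomal protein genes have many processed copies. In the unfolded protein and integrated stress response 17 of 19 were lower, 1 higher and 1 not called, with a median of -0.60. DDIT3, the CHOP factor, had 3.95 and 3.297 CPM in αC and 7.89 and 8.704 CPM in FBG (-1.19 ± 0.15), CHAC1 had 1.33 and 1.67 CPM in αC and 5.71 and 6.26 CPM in FBG (-1.99 ± 0.20), and TRIB3 was the higher member (0.44 ± 0.054). Heat shock chaperones were lower in 8 of 10 cases. HSPA8, the constitutive HSP70, had 2295 and 2294 CPM in αC and 4249 and 4239 CPM in FBG (-0.89 ± 0.0063) and DNAJB1 had 198 and 198 CPM in αC and 400.4 and 394 CPM in FBG (-1.01 ± 0.024). Mitochondrially encoded messenger RNAs were lower in 11 of 13 cases and higher in 2 (ND5 at 0.07 ± 0.0091 and COX1 at 0.06 ± 0.0044), with ATP8 at -0.55 ± 0.020, ND3 at -0.56 ± 0.027 and ND4 at -0.26 ± 0.0073.

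Metabolic, p53 and positional lists had members in both directions. Of all genes tested 36.6% were higher and 36.9% lower, with a median of 0.02. The lipid synthesis (median 0.04) and hypoxia (median 0.01) lists stood close to that background. Lipid synthesis genes were higher in 11 and lower in 9 of 23 cases, with SREBF1, the lipogenic regulator, at 248 and 243 CPM in αC and 101 and 100.4 CPM in FBG (1.28 ± 0.031), FASN at 0.74 ± 0.011, FADS1 at -0.71 ± 0.020 and INSIG1 at -0.71 ± 0.043. Hypoxia and glycolysis genes were higher in 10 and lower in 8 of 20, with NDRG1 (3.27 ± 0.074) and VEGFA (1.81 ± 0.053) on one side and SLC2A3 (-2.63 ± 0.14) and ENO2 (-1.17 ± 0.13) on the other. Of the p53 targets 9 were higher and 6 lower of 15, with SFN (1.84 ± 0.030), PLK3 (1.51 ± 0.071), GDF15 (-0.92 ± 0.13) and RRM2B (-0.42 ± 0.061). NRF2 targets were higher in 11 and lower in 4 of 18, with OSGIN1 (1.03 ± 0.24), TKT (0.65 ± 0.011), TALDO1 (-0.67 ± 0.030) and PGD (-0.58 ± 0.025). Nuclear pore genes were higher in 8 and lower in 14 of 27, with TPR (1.05 ± 0.023), RANBP2 (0.77 ± 0.023), NUP210 (-2.46 ± 0.092) and SEC13 (-0.65 ± 0.033).

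HOX genes, which keep a record of position along the body axis, differed by cluster. Of 39 listed, 13 were tested, 8 higher in αC, 4 lower and 1 not called. HOXA11 had 6.95 and 6.12 CPM in αC and 2.79 and 3.13 CPM in FBG (1.14 ± 0.17), HOXB4 had 2.44 and 2.91 CPM in αC and 10.7 and 9.93 CPM in FBG (-1.94 ± 0.16) and HOXB3 had 7.51 and 7.75 CPM in αC and 18.8 and 16.9 CPM in FBG (-1.23 ± 0.11). All 4 members called lower, HOXB2, HOXB3, HOXB4 and HOXB7, belong to the HOXB cluster, and the 8 called higher belong to HOXA and HOXD. Levels were low, and the list's median of 1.77 turned to -0.97 over the members with at least 10 counts in every library.

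Genes outside these lists were also far apart, and those named next, other than B3GNT3 and DAPP1, had at least 10 counts in each library. ADGRG1, an adhesion G-protein-coupled receptor, had 70.98 and 69.4 CPM in the αC libraries, against 1.09 and 0.884 CPM in the FBG libraries (6.14 ± 0.11). B3GNT3, a glycosyltransferase, had 306 and 354 counts in αC and 1 and 2 in FBG, a ratio of 139 (95% counting interval 47.2 to 674). DAPP1, a phosphoinositide-binding adaptor, had 422 and 405 counts in αC and 0 and 1 in FBG. TNNT2 and TNNC1, troponin subunits of heart muscle, were lower in αC, TNNT2 with 0.729 and 0.899 CPM in the αC libraries, against 54.9 and 53.5 CPM in the FBG libraries (-6.04 ± 0.13) and TNNC1 with 1.37 and 0.856 CPM in the αC libraries, against 66.7 and 63.04 CPM in the FBG libraries (-5.86 ± 0.12). ABI3BP, a matrix protein, had 8.58 and 8.86 CPM in the αC libraries, against 256 and 257 CPM in the FBG libraries (-4.88 ± 0.049). Neuronal and signalling genes lower in αC were PALM (-5.62 ± 0.15), KCNH1, a potassium channel (-5.04 ± 0.12), RGS4, a regulator of G-protein signalling (-5.16 ± 0.15), PNMA2 (-4.97 ± 0.076), RASGRF1 (-4.48 ± 0.099) and ZNF804A (-4.497 ± 0.19). The antisense transcript PLCE1-AS1 was lower at -5.52 ± 0.17, and without strand its reads cannot be told from those of its partner.

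By difference in CPM, abundant genes of the cytoskeleton and of metabolism were added to those above. SLC7A5, a carrier of large amino acids, had 2831 and 2830 CPM in the αC libraries, against 944 and 960.4 CPM in the FBG libraries (1.57 ± 0.0034), and AHNAK, a giant scaffold protein, had 2060 and 2047 CPM in the αC libraries, against 986 and 972 CPM in the FBG libraries (1.07 ± 0.0051). ACTB, β-actin, had 4384 and 4375 CPM in the αC libraries, against 6313 and 6340 CPM in the FBG libraries (-0.53 ± 0.0024), and TUBA1B, α-tubulin, had 1574 and 1538 CPM in the αC libraries, against 2551 and 2572 CPM in the FBG libraries (-0.72 ± 0.038). PEG10, a retrotransposon-derived gene, had 419 and 410.3 CPM in the αC libraries, against 1499 and 1517 CPM in the FBG libraries (-1.86 ± 0.012), and PPME1, a phosphatase methylesterase, had 172 and 176 CPM in the αC libraries, against 1196 and 1196 CPM in the FBG libraries (-2.78 ± 0.018). ACTB and TUBA1B have close relatives and copies that can share reads.

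Genes found in only one of the groups were mostly on the αC side. With at most 3 counts over the libraries of the other group and at least 10 counts in each library of its own, 317 genes were found in αC and 32 in FBG, of which 160 and 23 code for protein. With no count at all in the other group the numbers were 70 in αC and 6 in FBG. The αC libraries hold more reads, so a gene of equal level reaches 10 counts there sooner. The 5 autosomal genes of highest mean CPM among those 32 were FGG, NALF1 (1 and 2 counts in αC, against 59 and 39 in FBG), PTPRQ, a phosphatase (1 and 2 in αC, against 63 and 66 in FBG), TUBB4A, a β-tubulin of neurons (1 and 2 in αC, against 64 and 67 in FBG), and the uncharacterised LOC105374707 (1 and 0 in αC, against 86 and 85 in FBG).

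Whole chromosomes also differed between αC and FBG. Set against the autosomal median, the log2 fold changes of the 698 tested genes of chromosome 9 had a median of 0.52, and 79.8% of them lay above 0 on that scale. The value was 0.31 for the 731 genes of chromosome 6 and 0.36 for the 234 of chromosome 18. On chromosome 18 the 67 genes before the centromeric gap had a median of 0.77 and the 167 after it 0.12. The other autosomes lay between -0.16 and 0.12. For chromosome 9 the same value was 0.52 in αC against Mock, 0.01 in αC against FCP and -0.01 in FBG against Mock. Called were 65.3% of chromosome 9 genes as higher and 12.6% as lower, against 36.75% and 36.71% of autosomal genes. Without chromosomes 6, 9 and 18 there were 9949 calls among 13621 genes. A response to the αC domain and another difference between the cells of these libraries cannot be told apart where they move together, and the part of these shifts in the results above was not tested.

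**Figure D4:**
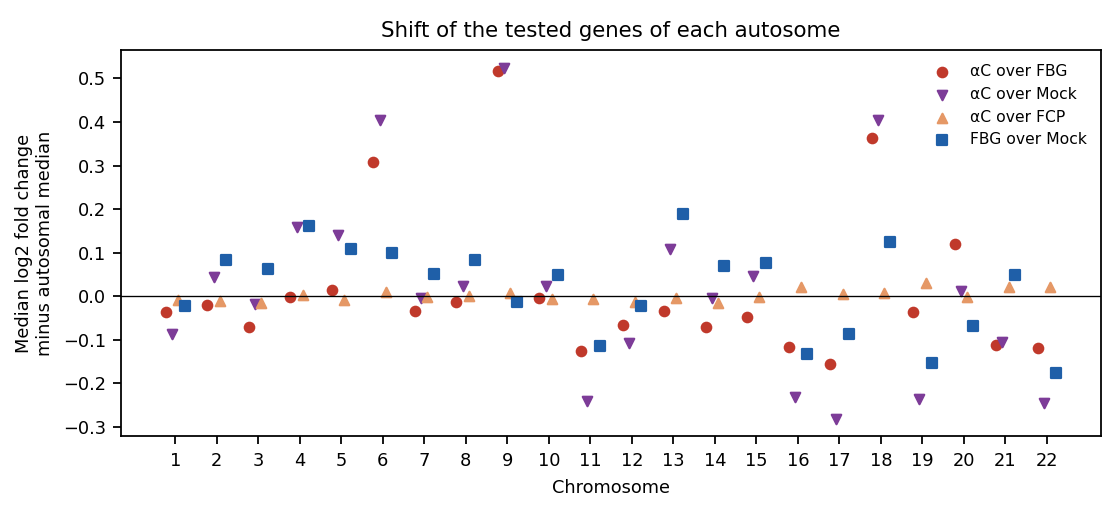
Median log2 fold change of the tested genes of each autosome, minus the median of all autosomal genes, for αC over FBG, αC over Mock, αC over FCP and FBG over Mock, 1 point per chromosome and comparison. Chromosomes 9, 18 and 6 stand at 0.52, 0.36 and 0.31 in αC over FBG, and chromosome 9 at 0.01 in αC over FCP.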

How the data were processed

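Per the file headers, the deposited files hold unnormalised counts, per gene, of read pairs, which the authors made with featureCounts 1.6.0 over exons summed by gene, in paired-end mode with no strand and no multi-mapping option. The submitters' processing notes name featureCounts 1.6.2, Trimmomatic 0.39, HISAT2 2.2.1 and SAMtools 1.9, and the build GRCh38.p14. Labels' protocols state mRNA enrichment and random primers. Genes with a copy on an alternate locus, whose reads can be split or lost, were set aside. Counts were tested with edgeR 4.0.16 in R 4.3.3 (quasi-likelihood with robust estimation, scaled by TMM, low genes removed with filterByExpr), with all 8 libraries in 1 fit and 4 residual degrees of freedom. A gene was called at a Benjamini-Hochberg adjusted p under 0.05 over all 15284 genes. Levels are TMM-scaled CPM, and RPKM divides them by the exon length in the files. Standard errors are the log2 fold change divided by the root of the F statistic. They are approximate and lay below counting error for 16.4% of genes, so errors there are too small. Abundant genes named above, such as PLEC, SLC7A5, CCN2 and FN1, are among these. Counting intervals and the 3-count floor cover counting error only. The procedure was run on simulated counts with more spread between libraries than these data and few changed genes. That run does not test standard errors this small, or a contrast in which most genes differ.

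Genes were named by a rule. Among called genes it took the 10 largest fold changes each way (at least 10 counts in each library and 10 CPM in the higher group), the 10 largest CPM differences each way, the 5 most abundant genes nearly confined to a group each way, and up to 2 members each way per list, with 28 preset genes. Genes of the sex chromosomes were not named, and a few other genes are not reported here. Further genes (IL1A, CSF2, CXCL1, CXCL3, NFKBIA, FGB, F3, TSLP, LAMA3, COL7A1, KRT8, KRT15, KRT18, TLN1, VCL, PXN, PTK2, MKI67, the catenins and those of the closing section) were chosen after their values were seen. The comparison, the lists and the motifs were chosen with earlier results of these data known. Alternatives were other scalings, filters, libraries, a replicate block, copies kept, a test against a 2-fold difference, GC content and length trends removed, DESeq2 1.42.0, and each replicate left out.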

Additional observations from a re-analysis of the deposited data

How the results depend on the processing

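The numbers of genes called higher (5589) and lower (5634), and at least 2-fold higher (2402) and lower (1167), stayed within 1.5 times under every alternative but a stricter filter and a test against a minimum fold. With at least 10 counts in every αC and FBG library, 1248 genes were at least 2-fold higher and 739 lower, over fewer genes (12645). A test against a 2-fold difference called 1415 higher and 718 lower, and these are also its counts of genes at least 2-fold apart, since it asks for more than a difference from 0. Leaving out each replicate in turn gave 5078 to 5175 higher and 5361 to 5390 lower, 2264 to 2352 at least 2-fold higher and 1146 to 1195 lower. With library size as the sole scaling, the median log2 fold change of all genes was 0.13 and 58.15% of calls were higher, against 0.02 and 49.8%. DESeq2 called 4657 higher and 4785 lower. With GC content and length trends removed, 165 of the 10240 main calls that had a GC value turned direction. Stable counts of calls do not make the list medians stable. The lipid synthesis median of 0.04 turned to -0.001 with these trends removed and to -0.01 without FBG replicate 1. Medians also changed sign under an alternative for collagens, WNT and FGF genes, D-type cyclins, HOX genes, leukocyte markers, and platelet and erythroid markers. The fold test ended the calls of 54 named genes. Samples with equal replicate numbers did not deviate together (correlations of -0.01 to 0.01 over 10055 genes), and a replicate block called 5574 higher and 5627 lower. Depth limits genes under 10 counts in FBG, and leaving out a replicate leaves a library that is assumed to vary like the other groups.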

Other observations

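Genes that do not code for protein were higher in αC more often than coding genes. Of 2174 long non-coding RNA genes tested, 34.7% were called and at least 2-fold higher in αC and 6.07% at least 2-fold lower, against 11.9% and 8.08% of 12463 protein-coding genes. Of 122 small nucleolar RNA genes 30 were at least 2-fold higher and none lower. The filter on low counts can keep a gene through the libraries where it is higher, and the αC libraries were deeper. With at least 10 counts in every αC and FBG library, genes of all kinds at least 2-fold higher went from 2402 to 1248, and lower from 1167 to 739. The shares by kind of gene were not tested under that filter. Long non-coding RNA genes took 0.928% and 0.926% of counts in the αC libraries, against 0.715% and 0.711% in the FBG libraries. MALAT1, a nuclear non-coding RNA, had 33.5 and 33.1 CPM in the αC libraries, against 3.67 and 4.08 CPM in the FBG libraries (3.10 ± 0.11), with a mean of 33.2 CPM in FCP and 1.98 CPM in Mock. NEAT1, the scaffold of paraspeckles, had 17.97 and 17.6 CPM in the αC libraries, against 5.305 and 5.71 CPM in the FBG libraries (1.69 ± 0.12). AFAP1-AS1, an antisense transcript of AFAP1, had 132 and 123 CPM in the αC libraries, against 1.97 and 2.58 CPM in the FBG libraries (5.81 ± 0.085), and reads of the pair cannot be told apart without strand. NR2F1-AS1 stood on the other side, with 3.56 and 3.55 CPM in the αC libraries, against 24.5 and 23.7 CPM in the FBG libraries (-2.76 ± 0.12). The enrichment of messenger RNA was not described in detail, and its part in these differences was not tested.

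A cluster of zinc-finger repressor genes on chromosome 19 was higher in αC. In windows of 41 tested genes, the highest on that chromosome lay between 19.53 and 23.76 Mb, with a median 1.06 above the autosomal median. Of the 24 ZNF genes tested there, 20 were higher, 1 lower and 3 not called, and 13 were at least 2-fold higher, with a median log2 fold change of 1.16. The 188 ZNF genes elsewhere on chromosome 19 had a median of 0.24, with 92 higher and 28 lower, and the 205 on other chromosomes 0.17, with 97 higher and 54 lower. In the cluster the median was 0.72 in FBG against Mock and -0.06 in αC against FCP. ZNF91, a KRAB zinc-finger repressor of SVA retrotransposons, had 40.7 and 39.4 CPM in the αC libraries, against 17.1 and 16.8 CPM in the FBG libraries (1.24 ± 0.073), and ZNF626 had 5.79 and 6.68 CPM in the αC libraries, against 1.02 and 0.680 CPM in the FBG libraries (2.87 ± 0.23). ZNF714, in the same cluster, was not called at 0.06 ± 0.042 (adjusted p = 0.223, edgeR). These genes are close relatives that can share reads, and the window was chosen after its values were seen.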
